A study of Mus musculus with 2 samples.

Results

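The Toll-like receptor genes Tlr1, Tlr2, Tlr3, Tlr4, Tlr6, Tlr7, Tlr8, Tlr9 and Tlr13, together with Cd14, were followed across the immune cells of a mouse melanoma. These 10 genes were found by symbol among the 32285 features of the count tables, and all 10 had UMIs (unique molecular identifiers, which mark single captured RNA molecules) in both libraries. The tumours were B16F10-OVA, a mouse melanoma line that carries ovalbumin, grown under the skin. The UDSP-Hep group had been injected with an agent of that name, which the labels do not describe, on days 10, 12, 14 and 16, and the PBS group with buffer on the same days. On day 19, cells sorted as CD45+ from 3 tumours of each group gave 1 droplet library per group, so each group was a single pool. The labels give no strain, sex or age for the mice. With 1 library per group there was no replicate check and no test of a difference: every interval is a 95% interval for counting error alone, and the spread between animals is unknown.

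Toll-like receptors are membrane proteins that recognise conserved microbial molecules and products of damaged cells. Tlr1, Tlr2, Tlr4 and Tlr6 act at the cell surface, mainly on lipopeptides (Tlr2 paired with Tlr1 or Tlr6) and on lipopolysaccharide (Tlr4, which Cd14 supplies with its ligand). Tlr3, Tlr7, Tlr8, Tlr9 and Tlr13 act in endosomes on nucleic acids. Nearly all signal through the adaptor Myd88 to NF-kB and to inflammatory cytokine genes, while Tlr3 uses Ticam1, and Tlr4 uses both adaptors.

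The stretch upstream of the start is shown for Tlr2 and Tlr13, which were higher in the UDSP-Hep library in most of the cell groups compared below. Both sequences come from the RefSeq promoter table on GRCm38.p6, read on the gene's strand, and end where an annotated exon begins. Capitals mark matches to the motifs searched, an NF-kB-type motif in Tlr2 (GGG, any 5 bases, then CC) and a PU.1-type GAGGAA in Tlr13.
Tlr2, chr3:83841768-83841858, minus strand: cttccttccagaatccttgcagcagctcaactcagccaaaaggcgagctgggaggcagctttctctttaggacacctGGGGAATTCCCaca
Tlr13, chrX:106143025-106143203, plus strand: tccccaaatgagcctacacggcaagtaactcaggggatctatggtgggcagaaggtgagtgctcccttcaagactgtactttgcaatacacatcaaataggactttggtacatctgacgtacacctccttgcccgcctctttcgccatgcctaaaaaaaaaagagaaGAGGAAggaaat

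The table held promoters for 7 of the 10 genes, and 5 motifs were searched on both strands of the 250 bases before each start. In Tlr2, 3 overlapping matches to the NF-kB-type motif on both strands made up the capital run, the first beginning 173 bases before the RefSeq start. An NF-kB-type match was also present in Tlr3 and in 1 of 2 Tlr6 promoters, and in 45.8% of all 32841 promoters of that length. The PU.1-type match in Tlr13 began 83 bases before the start. GAGGAA was also found in Tlr1, Tlr8 and Tlr9, and in 23.3% of all promoters. The interferon-response core (GAAA, any 2 bases, then GAAA), present in 2.98% of all promoters, occurred in the other Tlr6 promoter as 2 matches. The AP-1-type TGANTCA, present in 6.75%, occurred in Tlr9, and an ETS-IRF composite (GGAA, any 2 bases, then GAAA), present in 2.30%, in none of these promoters. Such matches describe letters only and are not binding sites.

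On GRCm38 with GENCODE M21, Tlr2 lay at chr3:83836272-83841767, Tlr3 at chr8:45395665-45411080, Tlr4 at chr4:66827584-66930284 and Tlr9 at chr9:106222598-106226883. Tlr1 (chr5:64924679-64933563) and Tlr6 (chr5:64952031-64960097) were neighbours on the minus strand. Of the X-linked genes, Tlr13 lay at chrX:106143204-106160493, apart from the neighbouring pair Tlr8 (chrX:167242696-167264329) and Tlr7 (chrX:167304929-167330558). All 10 genes are protein coding. Tlr1 and Tlr6 transcripts shared 607 words of 31 bases, 18.3% of the words of Tlr1 and 16.4% of those of Tlr6, so the split of reads between this pair is uncertain. No other pair of members shared any such word. Tlr3 overlaps the antisense gene Gm45542, and the labels do not say whether the counting used strand, so reads of the pair may not be told apart.

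The libraries held 7872 barcodes with a median of 5641 UMIs in UDSP-Hep and 7379 barcodes with a median of 7890 UMIs in PBS, of which 7194 and 6717 cells were kept. The libraries shared 25 barcode sequences, 20 among kept cells. Each cell was placed in a gate when markers of 1 cell type scored above those of all others, and no receptor gene or Cd14 was a marker. Monocyte, macrophage and dendritic gates with at least 50 cells in each library were classical monocyte (1369 UDSP-Hep and 2164 PBS cells), nonclassical monocyte (431 and 133), macrophage (797 and 1231), cDC2 (197 and 287) and mature dendritic cell (64 and 179). These 5 gates were compared by count. Of their cells, 353 of 2858 in UDSP-Hep and 541 of 3994 in PBS lay within 0.05 score units of a gate limit. Smaller gates, given as levels outside that count, were neutrophil (660 and 49), cDC1 (31 and 106), plasmacytoid dendritic cell or pDC (32 and 82) and B cell (66 and 47). Own markers made up 4 to 7 of the 10 leading genes in each of these 9 gates. Cells were placed by those same markers, so this is no separate check of the gates. Ptprc, which encodes the sorted antigen CD45, was at 412 CPM or more in all 9 gates but the PBS mature dendritic gate, at 376 CPM. CPM stands for the UMIs of a gene per 1000000 UMIs of the gate. Levels are compared within a gene only, since the files give no basis for scaling UMIs by transcript length.

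Among 50 combinations of 10 genes and 5 gates, 40 reached the 20 summed UMIs set for a ratio. A gene was called higher, or lower, where the ratio of UDSP-Hep to PBS was at least 1.5-fold in that direction and its counting interval left out equality. Of the 40, 14 were called higher, 0 lower and 26 neither. In classical monocytes 3 of 10 members were higher, against 9.1% of all measured genes. In nonclassical monocytes it was 1 of 8 against 6.87%, in macrophages 4 of 10 against 11.1%, in cDC2 2 of 8 against 6.67% and in mature dendritic cells 4 of 4 against 13.1%. The 0 members called lower stood beside 3.44%, 2.3%, 4.66%, 2.64% and 3.26% of all genes in the same order of gates. The median log2 ratio of all measured genes was itself above 0, at 0.14, 0.11, 0.10, 0.07 and 0.12. Beside those values, the medians over measured members were 0.31, 0.36, 0.29, 0.17 and 2.06. In nonclassical monocytes the members' share of higher calls was thus 1 gene and near the background. There Tlr1, Tlr4, Tlr6 and Tlr8 had 8, 16, 12 and 8 UMIs in PBS and reached the minimum only with UDSP-Hep. Nothing is read from the median of nonclassical monocytes. In mature dendritic cells Tlr1 (15 UMIs in UDSP-Hep and 7 in PBS) and Tlr2 (55 and 18) reached the UMI minimum only through UDSP-Hep, where they were high, and the other 6 members did not reach it. The count and median of that gate are therefore given as a description and nothing is read from them.

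**Figure D1:**
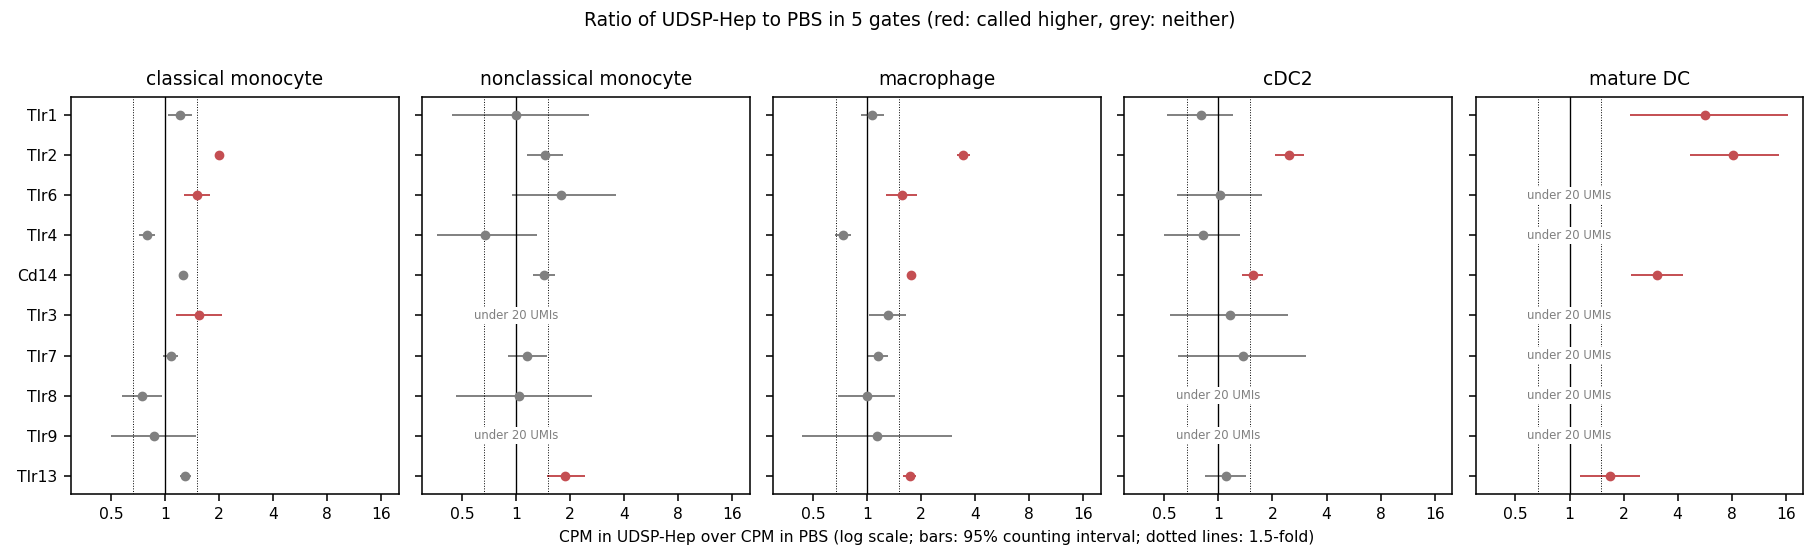
Ratio of UDSP-Hep CPM to PBS CPM on a log2-spaced axis for each gene (rows) in the 5 gates compared by count, with 95% counting intervals and dotted lines at 1.5-fold. Red points were called higher, grey points neither; the Tlr2 points sit at 2.01, 1.45, 3.42, 2.49 and 8.10 from left to right, and the Tlr4 points lie left of equality.

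Tlr2, the shared partner of the lipopeptide receptors, was called higher in 4 of the 5 gates. Among them were mature dendritic cells, where the call is a description only. In macrophages it had 2138 UMIs, or 180 CPM, in UDSP-Hep and 782 UMIs, or 52.6 CPM, in PBS, a ratio of 3.42 (3.15 to 3.72). In classical monocytes it had 293 CPM in UDSP-Hep and 146 CPM in PBS, a ratio of 2.01 (1.91 to 2.11). In cDC2, the dendritic cells that mainly present antigen to CD4 T cells, it had 107 CPM in UDSP-Hep and 43.1 CPM in PBS, a ratio of 2.49 (2.07 to 2.99). The interval of each UDSP-Hep level lay wholly above that of the PBS level in these 3 gates. Nonclassical monocytes had 165 CPM in UDSP-Hep and 114 CPM in PBS, and the ratio of 1.45 (1.15 to 1.84) missed the fold limit.

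Mature dendritic cells carry antigen to lymph nodes and are marked by Ccr7, Fscn1 and Ccl22. There Tlr2 had 55 UMIs in 64 UDSP-Hep cells and 18 UMIs in 179 PBS cells, which is 60.8 CPM against 7.50 CPM and a ratio of 8.10 (4.68 to 14.7). In this gate the summed markers of other cell types were also higher in UDSP-Hep: the 11 macrophage markers reached 620 CPM against 128 CPM in PBS, the 10 classical monocyte markers 1242 against 348 CPM and the 10 T cell markers 710 against 161 CPM, with no macrophage, classical monocyte or T cell marker at 0 in either library. Leaving out cells that scored on neutrophil, T, NK or B cell markers, an alternative chosen after seeing the data, left 50 UDSP-Hep and 169 PBS cells. Without the others Tlr2 was called higher in the gate, at a ratio of 5.59 (2.77 to 11.6), and Cd14 was not, at 1.395 (0.854 to 2.21). Macrophage and classical monocyte markers were not part of that filter. It therefore cannot show what RNA of those cells added to either ratio, which was not tested.

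Markers of other cell types were measured in the other gates as well. In macrophages the 11 neutrophil markers summed to 990 CPM in UDSP-Hep and 382 CPM in PBS, with Stfa2l1 at 0 in PBS alone, and the 10 T cell markers to 303 CPM and 126 CPM, with none at 0. In cDC2 the 10 T cell markers summed to 183 CPM in UDSP-Hep and 90.6 CPM in PBS, with none at 0, and in classical monocytes the 9 NK cell markers to 124 CPM and 15.5 CPM, with none at 0. Other lists were lower in UDSP-Hep. The neutrophil markers in classical monocytes summed to 819 CPM in UDSP-Hep and 946 CPM in PBS. In macrophages the classical monocyte markers summed to 3094 CPM in UDSP-Hep and 4698 CPM in PBS. The part of RNA from other cells in the results was not tested. With cells scoring on neutrophil, T, NK or B cell markers left out, Tlr2 was called higher in macrophages (ratio 3.92), cDC2 (2.64) and classical monocytes (1.90). Free RNA, captured from outside a cell, stays in the cells kept, so these ratios do not settle that part. The macrophage gate's own 11 markers summed to 11580 CPM in UDSP-Hep and 11571 CPM in PBS. In the smaller neutrophil gate Tlr2 had 415 CPM in UDSP-Hep and 154 CPM in PBS, a ratio of 2.70 (1.81 to 4.20) that rests on 25 UMIs in PBS. The smaller gates were read the same way outside the count. In neutrophils 3 of 5 measured members were higher and 0 lower, against 10.0% and 9.85% of all genes. In cDC1 it was 1 (Tlr2, at 47.3 CPM in UDSP-Hep and 22.2 CPM in PBS) and 0 of 4, against 7.49% and 6.04%, and in pDC 0 and 0 of 1, against 5.63% and 3.43%. No member reached 20 UMIs in B cells, where 5.72% of all genes were higher and 4.16% lower.

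The order of Tlr2 levels was read by library. In UDSP-Hep neutrophils ranked first, then classical monocytes, macrophages and nonclassical monocytes, cDC2 and mature dendritic cells. In that order macrophages at 180 CPM and nonclassical monocytes at 165 CPM did not separate by their intervals, while the other neighbours did. In PBS neutrophils at 154 CPM and classical monocytes at 146 CPM did not separate, nonclassical monocytes followed at 114 CPM, and macrophages at 52.6 CPM and cDC2 at 43.1 CPM did not separate.

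Among the gates of the count, Tlr1, a partner of Tlr2 for triacylated lipopeptides, was called higher in mature dendritic cells alone. It had 15 UMIs in UDSP-Hep and 7 UMIs in PBS there. In the other gates of the count its ratio ran between 0.799 in cDC2 and 1.21 in classical monocytes, with no call. Outside the count it was also called higher in the T cell gate, at a ratio of 1.67 (1.22 to 2.29). Macrophages had 27.3 CPM in UDSP-Hep and 25.5 CPM in PBS, the highest of the 5 gates for Tlr1. The T cell gate held 10.9 CPM in UDSP-Hep and 6.54 CPM in PBS, as much as 48.6% and 35.3% of the classical monocyte level, and some T cells are known to express Tlr1.

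Tlr6, the partner for diacylated lipopeptides, was called higher in 2 gates of the count, just past the fold limit in both. Macrophages had 19.3 CPM in UDSP-Hep and 12.4 CPM in PBS, a ratio of 1.55 (1.28 to 1.90). Classical monocytes had 23.7 CPM in UDSP-Hep and 15.7 CPM in PBS, a ratio of 1.51 (1.28 to 1.78). Both calls lie near the limit, and each was lost under several of the alternatives tried. In nonclassical monocytes the ratio was 1.77 (0.954 to 3.60), on 69 UMIs in UDSP-Hep and 12 in PBS. It was past the fold limit but not called, since the interval includes equality. Neutrophils held the most Tlr6, with 128 CPM in UDSP-Hep and 117 CPM in PBS, and their intervals lay above those of the other 8 gates described above in both libraries.

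Tlr4, the lipopolysaccharide receptor, was below equality in all 4 gates where it could be measured, and called lower in none. Macrophages had 563 UMIs, or 47.3 CPM, in UDSP-Hep and 961 UMIs, or 64.6 CPM, in PBS, a ratio of 0.733 (0.659 to 0.814). Classical monocytes had 42.8 CPM in UDSP-Hep and 53.8 CPM in PBS, a ratio of 0.795 (0.716 to 0.882). In these 2 gates the intervals left out equality while the fold stayed short of the limit. The nonclassical monocyte and cDC2 ratios were 0.675 (0.364 to 1.31) and 0.818 (0.499 to 1.31), with intervals that include equality. In the neutrophil gate Tlr4 had 133 CPM in UDSP-Hep and 80.1 CPM in PBS, a ratio of 1.66 (0.953 to 3.18) that could not be told from equality at 13 PBS UMIs.

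Cd14, the surface co-receptor that hands lipopolysaccharide to Tlr4 and also serves Tlr2, had the most UMIs of the 10 genes. Macrophages had 7413 UMIs, or 623 CPM, in UDSP-Hep and 5266 UMIs, or 354 CPM, in PBS, a ratio of 1.76 (1.70 to 1.82). In cDC2 Cd14 had 154 CPM in UDSP-Hep and 99.6 CPM in PBS, a ratio of 1.55 (1.36 to 1.77), and in mature dendritic cells 90.6 CPM against 29.6 CPM, a ratio of 3.06 (2.20 to 4.27). All 3 were called higher. The cDC2 call was lost under 4 of 13 alternatives at the 1.5-fold limit (lowest ratio 1.27), and the mature dendritic call without the cells that scored on other markers, as given above. Classical monocytes, with the highest Cd14 level of the 5 gates, had 926 CPM in UDSP-Hep and 732 CPM in PBS, and the ratio of 1.26 (1.23 to 1.30) was below the fold limit. Nonclassical monocytes had 450 CPM in UDSP-Hep and 315 CPM in PBS, a ratio of 1.43 (1.25 to 1.65), also not called. In neutrophils the levels were 2201 CPM in UDSP-Hep and 1133 CPM in PBS, above the other 8 gates described above in both libraries, with a ratio of 1.94 (1.67 to 2.27).

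**Figure D2:**
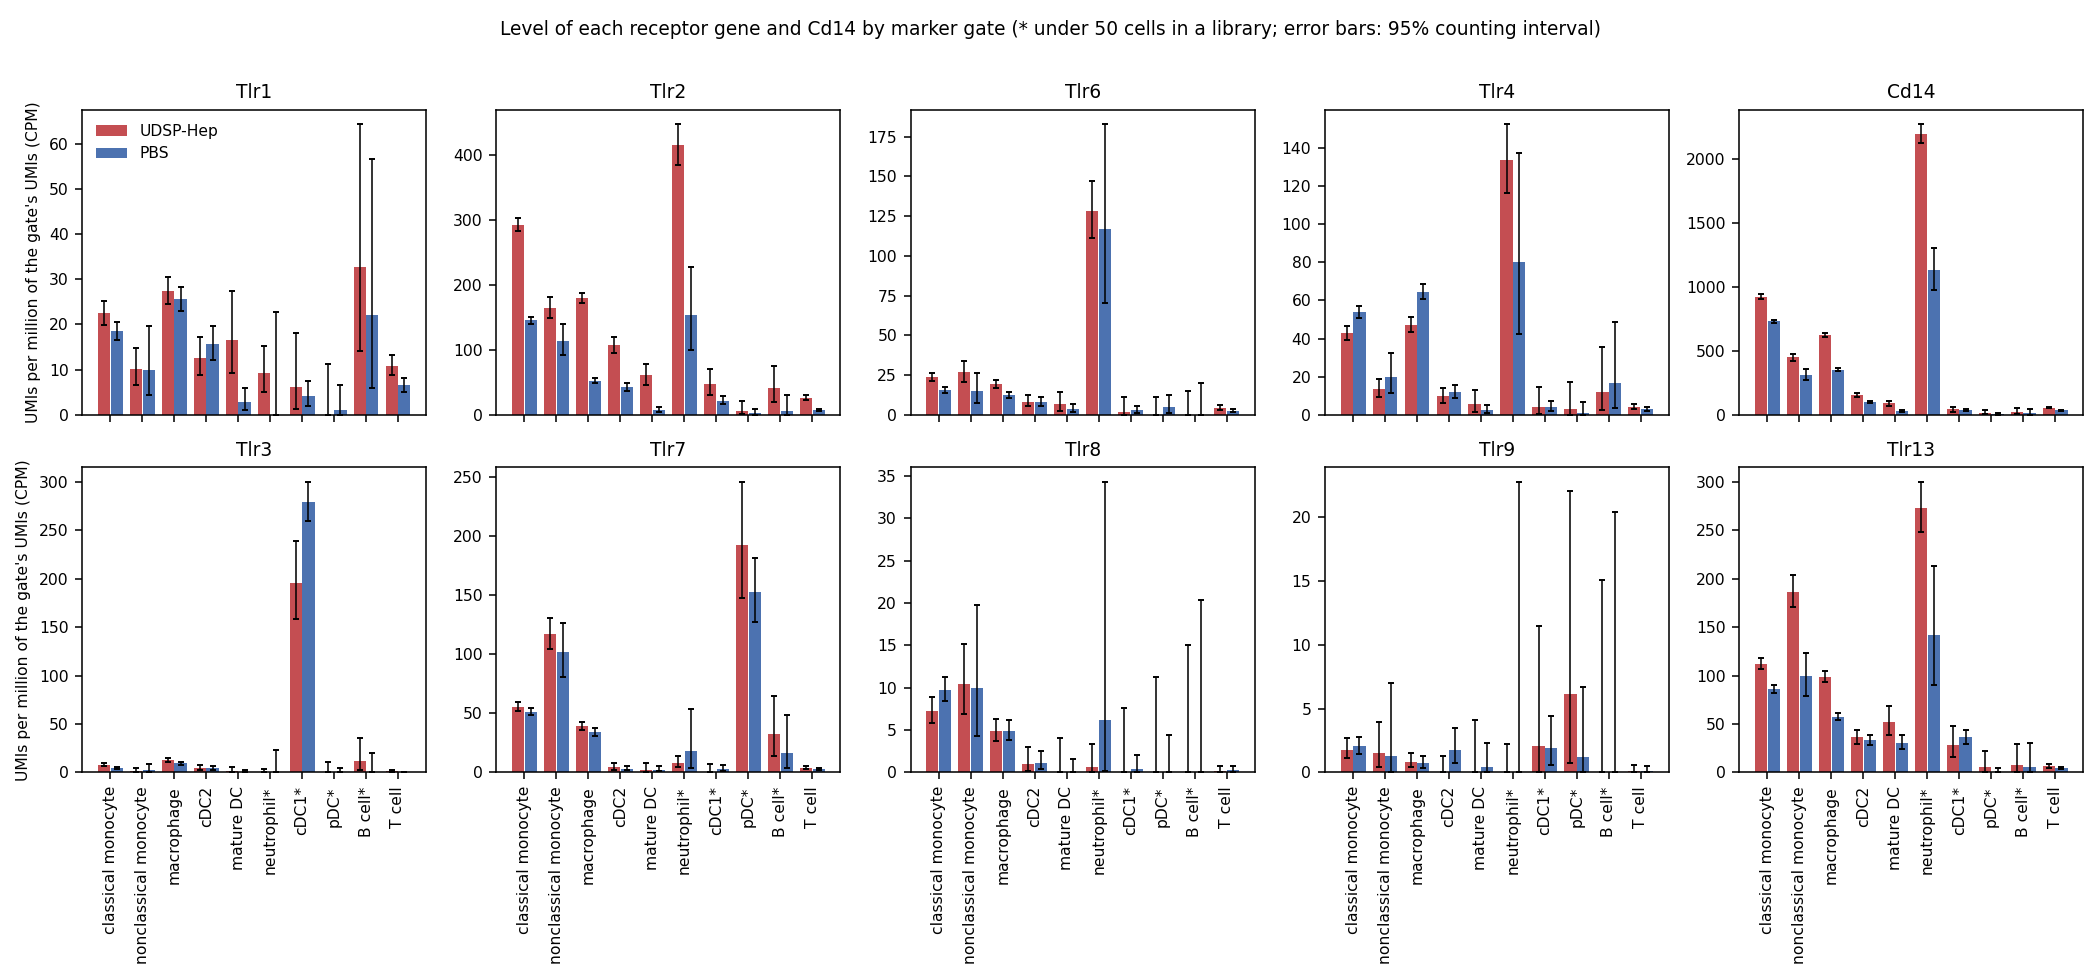
CPM of each gene by gate, UDSP-Hep (red) left of PBS (blue), with 95% counting intervals and a separate linear axis for each gene; a star marks gates with under 50 cells in a library. Tlr3 stands out in cDC1 and Tlr7 in pDC, while Tlr2, Tlr4, Tlr6, Tlr13 and Cd14 are highest in neutrophils. In PBS the neutrophil intervals of Tlr2, Tlr4 and Tlr13 overlap those of the next gate.

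Tlr3, the endosomal sensor of double-stranded RNA, was concentrated in cDC1, the dendritic cells that cross-present antigen to CD8 T cells. The cDC1 gate had 95 UMIs, or 195 CPM, in UDSP-Hep and 741 UMIs, or 279 CPM, in PBS. The next gate, macrophages, had 12.5 CPM in UDSP-Hep and 9.61 CPM in PBS, far outside the cDC1 intervals of 158 to 239 CPM and 259 to 300 CPM. The cDC1 ratio of 0.701 (0.560 to 0.868) fell short of the fold limit and rests on 31 UDSP-Hep cells with a median of 11554 UMIs, against 106 PBS cells with a median of 22116.5 UMIs. A Tlr3 UMI was found in 51.6% of UDSP-Hep and 82.1% of PBS cDC1, and in 12.9% and 17.3% after thinning to 1000 UMIs, with overlapping intervals. The T cell shares at full depth were 0.773% in UDSP-Hep and 0.339% in PBS. The cDC1 held 22.9% of all Tlr3 UMIs of kept cells in UDSP-Hep and 71.3% in PBS. In classical monocytes Tlr3 was called higher, at 7.68 CPM in UDSP-Hep and 4.97 CPM in PBS, a ratio of 1.55 (1.16 to 2.07). That ratio rests on 99 and 97 UMIs, and the call was lost under 5 of 13 alternatives at the 1.5-fold limit. In macrophages the ratio was 1.30 (1.03 to 1.65), with no call.

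Tlr7, a sensor of single-stranded RNA, ranked first in pDC, the main producers of type I interferon. The pDC gate had 63 UMIs, or 192 CPM, in UDSP-Hep and 127 UMIs, or 152 CPM, in PBS, a ratio of 1.26 (0.916 to 1.72). Nonclassical monocytes came second with 117 CPM in UDSP-Hep and 102 CPM in PBS, followed by classical monocytes with 55.6 CPM and 51.4 CPM and macrophages with 39.1 CPM and 34.1 CPM. The intervals of the first 4 gates separated in both libraries. Its ratios in the 4 measured gates of the count ran between 1.08 and 1.37, and none was called.

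Tlr8, close to Tlr7 in sequence family and genome position, was found mainly in monocytes. Nonclassical monocytes had 10.4 CPM in UDSP-Hep and 10.0 CPM in PBS, and classical monocytes 7.30 CPM and 9.74 CPM, with overlapping intervals between the 2 gates. The classical monocyte ratio was 0.749 (0.579 to 0.964), not past the fold limit. In pDC 0 of 32 UDSP-Hep cells and 0 of 82 PBS cells had a Tlr8 UMI, which allows shares of up to 9.38% and 3.66%.

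Tlr9, the sensor of unmethylated CpG DNA, was hardly captured in either library, with 46 UMIs in all kept UDSP-Hep cells and 78 in all kept PBS cells. It is known from pDC and B cells, yet the pDC gate held 2 UMIs in UDSP-Hep and 1 in PBS. No UMI was found in 66 UDSP-Hep B cells or 47 PBS B cells, which allows shares of cells with a UMI of up to 4.55% and 6.38%. About as many UMIs lay in classical monocytes, 23 in UDSP-Hep and 40 in PBS, as in all other cells. In cDC2 it had 0 UMIs in UDSP-Hep and 8 in PBS, under the minimum for a ratio. In the 2 gates that reached the minimum, the intervals of the ratio were 0.498 to 1.49 (classical monocytes) and 0.433 to 2.95 (macrophages), so smaller differences were not detectable at this depth.

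Tlr13, a mouse sensor of bacterial ribosomal RNA, was called higher in 3 of the 5 gates. Nonclassical monocytes had 482 UMIs, or 187 CPM, in UDSP-Hep and 79 UMIs, or 99.0 CPM, in PBS, a ratio of 1.88 (1.48 to 2.42). Macrophages had 98.9 CPM in UDSP-Hep and 57.5 CPM in PBS, a ratio of 1.72 (1.57 to 1.88), and mature dendritic cells 51.9 CPM and 30.8 CPM, a ratio of 1.68 (1.14 to 2.46). In the nonclassical gate the 11 neutrophil markers summed to 631 CPM in UDSP-Hep and 397 CPM in PBS, the 9 NK cell markers to 115 and 30.1 CPM and the 10 T cell markers to 65.0 and 12.5 CPM, with 1 marker at 0 in UDSP-Hep (Ly6g) and several in PBS. The call held without cells scoring on those lists (1.91) and was lost when cells were thinned to 1000 UMIs (1.64, interval 0.954 to 2.99). The levels of the first 2 gates had intervals apart between the libraries, and those of the third overlapped slightly. Classical monocytes had 112 CPM in UDSP-Hep and 86.2 CPM in PBS, a ratio of 1.30 (1.21 to 1.40), and cDC2 a ratio of 1.10 (0.846 to 1.42). Neutrophils led the order with 273 CPM in UDSP-Hep and 142 CPM in PBS, a ratio of 1.93 (1.27 to 3.07). In PBS their interval overlapped that of nonclassical monocytes, so the lead separated in UDSP-Hep only.

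Depth and the levels in T cells were read beside these values. When every cell was thinned to 1000 UMIs, 15.7% of UDSP-Hep macrophages and 3.69% of PBS macrophages had a Tlr2 UMI, against 59.8% and 28.9% at full depth (median 12382 and 9640 UMIs). For classical monocytes the thinned shares were 23.8% in UDSP-Hep and 12.1% in PBS, against 70.8% and 48.1% at full depth (median 8700 and 8400.5 UMIs). Among T cells, with median depths of 5217 and 6320 UMIs, they were 1.63% in UDSP-Hep and 1.02% in PBS (8.19% and 4.74% at full depth). The shares in both phagocyte gates were above the T cell shares in each library, and the intervals of the libraries did not overlap. Nonclassical monocytes gave 11.8% in UDSP-Hep and 12.4% in PBS, so at equal depth no difference in Tlr2 was detectable there. For Cd14, the thinned macrophage shares were 38.4% in UDSP-Hep and 24.0% in PBS, and the T cell shares 2.95% and 2.46%. For Tlr4 they were 4.05% in UDSP-Hep macrophages and 6.24% in PBS macrophages, with overlapping intervals. Thinning left out the shallowest cells, 7 UDSP-Hep and 14 PBS classical monocytes, 6 and 13 macrophages and 7 and 3 T cells.

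**Figure D3:**
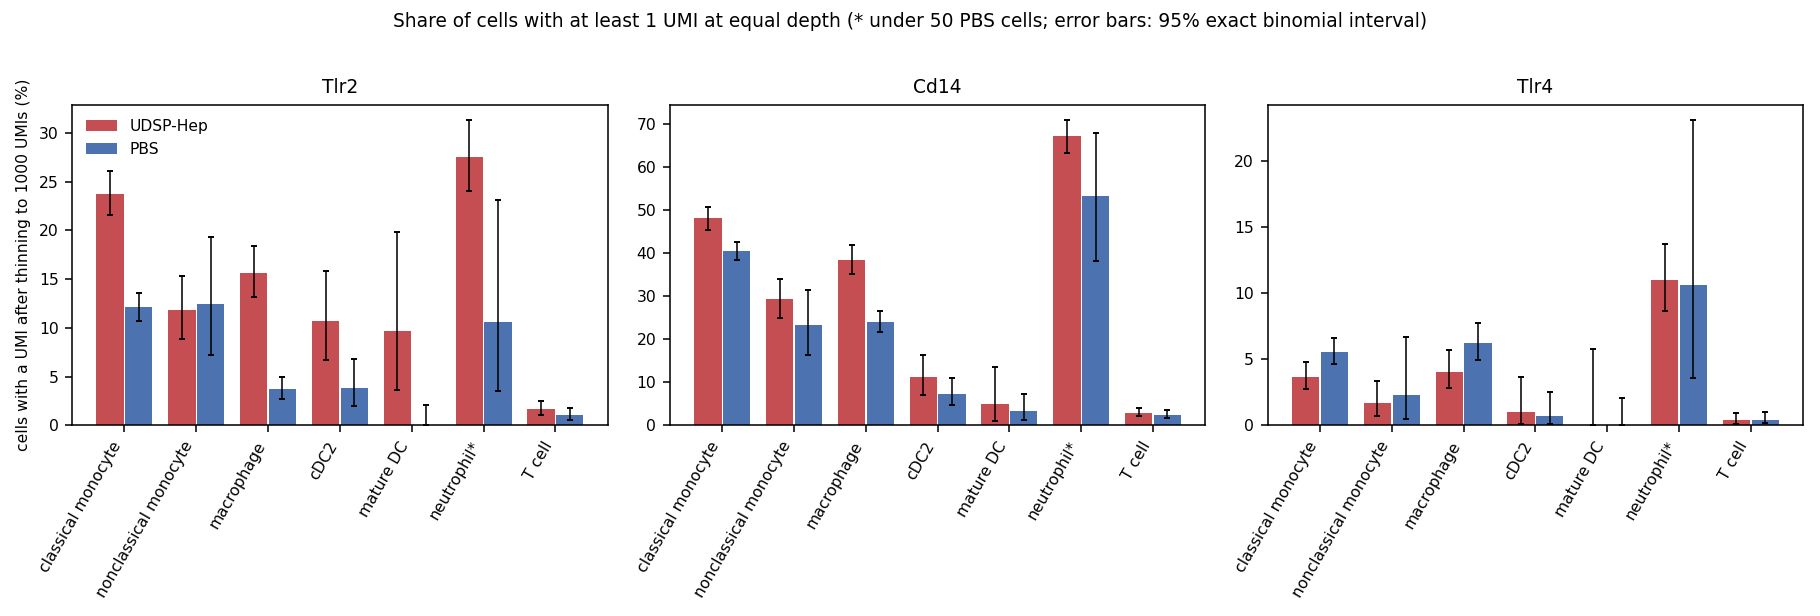
Share of cells (%) with at least 1 UMI of Tlr2, Cd14 or Tlr4 after thinning each cell to 1000 UMIs, UDSP-Hep (red) left of PBS (blue), with 95% exact binomial intervals. For Tlr2 the macrophage shares are 15.7% and 3.69%, and the T cell shares at the right are 1.63% and 1.02%.

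T cells, which lack Cd14, carried 56.4 CPM of it in UDSP-Hep and 35.1 CPM in PBS, a ratio of 1.61 (1.41 to 1.84). A single T cell held 44 of the 512 Cd14 UMIs in UDSP-Hep, and another 33 of the 386 in PBS. For Tlr2 the most in 1 T cell was 23 of 242 UMIs in UDSP-Hep and 6 of 86 in PBS. How much of the T cell level was free RNA, and how much came from T cells captured together with phagocytes, was not tested. Tlr2, which some T cells are known to express, stood at 26.7 CPM in UDSP-Hep and 7.81 CPM in PBS in the same gate, a ratio of 3.42 (2.66 to 4.42). In the T cell gate 4 of 7 measured members (Tlr1, Tlr2, Tlr6 and Cd14) were called higher and 0 lower, against 8.48% and 5.06% of all genes. NK cells had 12.1 CPM of Tlr2 in UDSP-Hep (78 UMIs) and 2.83 CPM in PBS (6 UMIs), and 155 and 16 UMIs of Cd14. There 2 of 3 measured members (Tlr2 and Cd14) were called higher, beside 5.19% of all genes. Both passed the UMI minimum only through UDSP-Hep, so nothing is read from their calls. In basophils Cd14, the 1 member measured, had 23 UMIs in UDSP-Hep and 2 in PBS. It passed the minimum only through UDSP-Hep, where 1 cell held 14 of the 23 UMIs, so nothing is read from its call, which stood beside 8.59% of all genes. The T cell level of Tlr2 was 14.8% of the macrophage level in UDSP-Hep and 14.9% in PBS, and 24.9% and 18.1% of the cDC2 level. In the PBS mature dendritic gate Tlr1, Tlr2 and Cd14 were no higher than in PBS T cells. With T cell CPM taken off, Tlr2 was still called higher in classical monocytes (1.93), macrophages (3.42) and cDC2 (2.28). In mature dendritic cells no ratio could be formed for Tlr1, Tlr2 or Cd14, since the PBS level was not above that of T cells, and the number of combinations called higher was 9. UMIs of Cd14 per UMI of Tlr2 were 2.12 in T cells, 3.16 in classical monocytes and 3.47 in macrophages of UDSP-Hep, against 4.49, 5.02 and 6.73 in PBS, with intervals apart between the libraries in each. They were 2.72 in UDSP-Hep and 2.76 in PBS nonclassical monocytes and 5.30 and 7.36 in neutrophils, with overlapping intervals, and 1.44 and 2.31 in cDC2 and 1.49 and 3.94 in mature dendritic cells, with intervals apart.

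Cells were also grouped by graph clustering on genes that excluded the 10 members, which gave 34 clusters, 13 of them phagocyte or dendritic clusters with at least 50 cells in each library. The Tlr2 ratio was above equality in 13 of 13 clusters and called higher in 10, with a range of 1.35 to 5.58. The share of all genes called was not taken by cluster, so the cluster counts here and below are a description only. In the gates compared by count, the median ratio of all genes was itself above equality, between 1.05 in cDC2 and 1.10 in classical monocytes. The clusters not called were cluster 4 (led by Camp, Hp and Ngp), cluster 9 (Ace, Adgre4 and Nxpe4) and cluster 17 (Ace, Adgre4 and Slc12a2). Among macrophage clusters, Tlr2 had 191 CPM in UDSP-Hep and 70.4 CPM in PBS in cluster 11 (Vcam1, C1qa, C1qc). It had 85.1 CPM and 25.5 CPM in cluster 13 (Gpnmb, Mmp12, Ctsk), and 82.0 CPM and 21.8 CPM in cluster 14 (Retnla, Cd163, Gja1). The ratios were 2.72, 3.34 and 3.77.

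Of the 13 clusters, cluster 3 had the highest Tlr2 level in both libraries (led by Ly6i, Saa3 and Cfb), with 382 CPM in UDSP-Hep and 246 CPM in PBS. That cluster held 576 UDSP-Hep and 238 PBS cells, so the gates differ between libraries in their makeup as well as within clusters. Cd14 was above equality in 13 of 13 clusters and called higher in 4 of them, clusters 9, 11, 14 and 22. In cluster 13 it was 420 CPM in UDSP-Hep and 381 CPM in PBS, a ratio of 1.10, so the 3 macrophage clusters did not share 1 value. Tlr13 was above equality in 13 of 13 and called higher in 3 (clusters 14, 17 and 22). Of the other members, Tlr6 was called higher in 3 of 13 clusters, Tlr3 in 3 of 9 and Tlr1 and Tlr7 in 1 of 12 each. Tlr8 had no call among 10 clusters, and Tlr9 was measured in none. Tlr4 was above equality in 3 of 12 and called lower in 2. These were cluster 13, with 24.3 CPM in UDSP-Hep and 44.7 CPM in PBS, and cluster 15 (Cxcl10, Gbp5, Calhm6), with 31.7 CPM and 51.5 CPM.

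**Figure D4:**
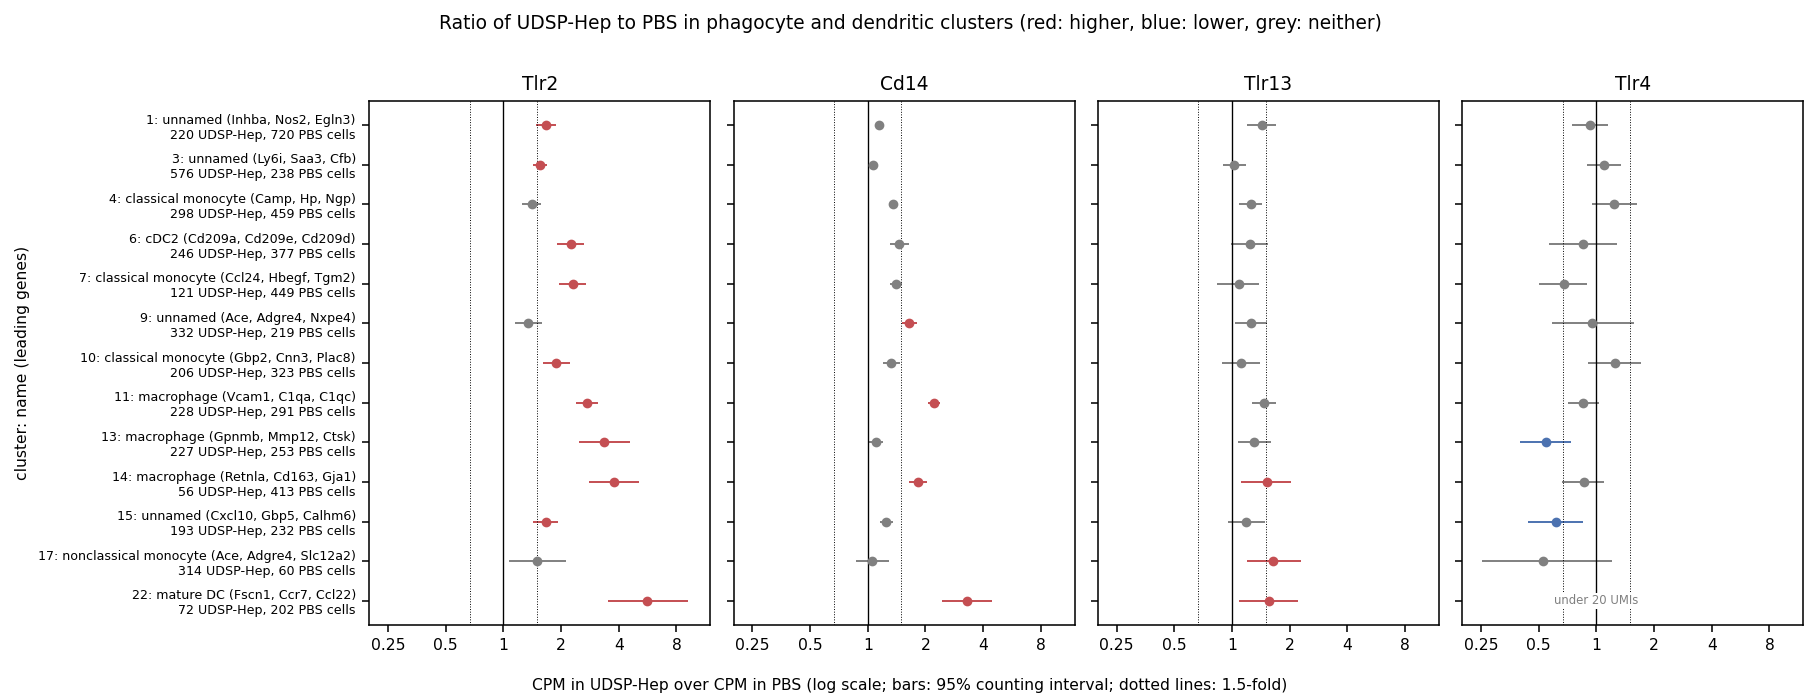
Ratio of UDSP-Hep CPM to PBS CPM on a log2-spaced axis for Tlr2, Cd14, Tlr13 and Tlr4 in 13 clusters (rows, with leading genes and cell numbers), with 95% counting intervals; red was called higher, blue lower and grey neither. All Tlr2 points lie right of equality, and the 2 blue points are Tlr4 in clusters 13 and 15.

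The genes whose level was most like each member were ranked over 21 sums of a gate in a library, as a description. Gate markers and the other members were left out of the ranking, and the sums share libraries and depth. Tlr2 was most like Ly6i (Pearson r 0.94), F10 (0.92) and Tnfaip2 (0.91), and Cd14 like F10 (0.96), Gm5150 (0.95) and C3 (0.95). Tlr13 was most like Wdfy3 (0.95), Tnfaip2 (0.94) and Il13ra1 (0.94). Tlr4 was most like Mmp8 (0.92), Smox (0.92) and Aatk (0.90), and Tlr6 like Trem1 (0.95), Fpr2 (0.94) and Gm15832 (0.94). Tnfaip2 and F10 were each named for a pair of members. For Tlr3 they were Pianp (0.95), Fam149a (0.93) and Gramd2 (0.93), for Tlr7 Tom1 (0.93), Hpse (0.89) and Ldlrad3 (0.87) and for Tlr8 Chst1 (0.96), Tnfsf13os (0.95) and Thbd (0.95). Tlr1 was most like Fcgr1 (0.88), Adam9 (0.81) and Ifit2 (0.80). For Tlr9, on 108 UMIs, the leading value was 0.71 for Met, next to Gpr108 (0.69) and Tor1aip1 (0.67).

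The rest of the pathway was read from 71 genes in 8 lists, of which 70 were matched in the tables. In macrophages 13 of 68 measured pathway genes were higher and 3 lower, against 11.1% and 4.66% of all genes. In cDC2 14 and 1 of 64 were, against 6.67% and 2.64%, and in mature dendritic cells 17 and 2 of 58, against 13.1% and 3.26%. In nonclassical monocytes 9 and 2 of 60 were, against 6.87% and 2.3%. In classical monocytes 3 and 2 of 67 were, against 9.1% and 3.44%, so the share of higher calls there was below that of all genes. The adaptors, which link the receptors to kinases (Myd88, Tirap, Ticam1, Ticam2, Sarm1, Pik3ap1), had 0 calls in either direction in all 5 gates, with 5 of 6 measured in each. Transcription factors had 0 calls among 7 in each of the 5 gates. With so few genes, 0 calls is near the shares of all genes just given and is no result about either list.

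The commonly induced targets had 8 higher and 2 lower of 15 in macrophages and 9 and 1 of 14 in cDC2. They had 11 and 1 of 14 in mature dendritic cells and 4 and 1 of 13 in nonclassical monocytes. These stand beside the shares of all genes given above for those gates. The T cell gate had 8 higher and 1 lower of 15, against 8.48% and 5.06% of all genes, and neutrophils 9 and 0 of 12, against 10.0% and 9.85%, so the calls were not particular to macrophages and dendritic cells. Il1b, which encodes a secreted inflammatory cytokine, had 1617 CPM in UDSP-Hep macrophages and 560 CPM in PBS macrophages, a ratio of 2.89 (2.81 to 2.96). Cxcl2, a neutrophil-attracting chemokine, had 1457 CPM in UDSP-Hep macrophages and 757 CPM in PBS macrophages, a ratio of 1.92 (1.88 to 1.97). Ptgs2, an enzyme of prostaglandin synthesis, had 453 CPM in UDSP-Hep macrophages and 264 CPM in PBS macrophages. In mature dendritic cells Cxcl2 had 377 CPM in UDSP-Hep and 32.5 CPM in PBS, a ratio of 11.6 with a lower bound of 9.04. The 11 neutrophil markers in that gate summed to 719 CPM in UDSP-Hep and 371 CPM in PBS. Retnlg and Ly6g were at 0 in both libraries and Stfa2l1 in PBS. Macrophage and classical monocyte markers were also higher there in UDSP-Hep, as given above. What RNA of other cells added to the target ratios and calls of any gate was not tested. The targets called lower, named after their values were seen, were Il6 in macrophages (15.4 CPM in UDSP-Hep and 23.7 CPM in PBS), cDC2 (13.2 and 23.1 CPM) and mature dendritic cells (35.4 and 63.3 CPM), and Ifnb1 in macrophages (5 UMIs in UDSP-Hep and 56 in PBS). Il6 encodes a cytokine of the acute-phase response and Ifnb1 a type I interferon.

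In classical monocytes 2 targets were higher and 2 lower of 14. Il1b had 2734 CPM in UDSP-Hep and 1398 CPM in PBS, a ratio of 1.96 (1.93 to 1.99), and Nlrp3, the inflammasome sensor, 168 CPM and 108 CPM. Tnf, in contrast, had 16.6 CPM in UDSP-Hep and 27.3 CPM in PBS, a ratio of 0.608 (0.517 to 0.714), and Il10, an anti-inflammatory cytokine, 3.26 CPM and 8.51 CPM. Il1b is abundant in neutrophils, at 13653 CPM in UDSP-Hep and 7262 CPM in PBS, and T cells held 251 CPM of it in UDSP-Hep and 49.9 CPM in PBS. The part of such RNA in the Il1b ratios was not tested.

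Of the restraining genes, 2 of 9 were higher in macrophages, 3 of 9 in cDC2 and 1 of 9 in classical monocytes, with 0 lower. Mature dendritic cells had 1 higher and 1 lower of 8, nonclassical monocytes 2 and 1 of 8, and T cells 5 and 0 of 9. The shares of all genes are those given above. Tnfaip3, a deubiquitinase that limits NF-kB signalling, was higher in macrophages (369 CPM in UDSP-Hep and 242 CPM in PBS), cDC2 (375 and 206 CPM) and mature dendritic cells (414 and 190 CPM). It was also higher in T cells, at 991 CPM in UDSP-Hep and 520 CPM in PBS. Irak3, which blocks receptor-proximal kinases, was higher in nonclassical monocytes, at 64.2 CPM in UDSP-Hep and 38.9 CPM in PBS. Tnip3 was lower in mature dendritic cells, at 217 CPM in UDSP-Hep and 334 CPM in PBS, and Socs1 lower in nonclassical monocytes, at 48.8 CPM and 74.0 CPM. Among surface accessory genes, 1 of 4 was higher in nonclassical monocytes, 2 of 5 in cDC2 and 2 of 6 in macrophages. It was 1 of 3 in mature dendritic cells and 0 of 6 in classical monocytes, with 0 lower. The scavenger receptor Cd36 was higher in nonclassical monocytes (414 CPM in UDSP-Hep and 261 CPM in PBS) and in cDC2 (10.1 and 3.52 CPM). Of the chaperone and trafficking genes, 3 of 9 were higher in mature dendritic cells and 1 of 9 in nonclassical monocytes, with 0 lower. Unc93b1, which carries the endosomal receptors to their compartment, was higher in mature dendritic cells, at 170 CPM in UDSP-Hep and 108 CPM in PBS. Tlr12, a profilin receptor outside the 10 genes, was lower in macrophages, at 4.03 CPM in UDSP-Hep and 6.52 CPM in PBS.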

How the data were processed

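Single-cell droplet libraries of sorted CD45+ tumour cells were compared, 1 for UDSP-Hep and 1 for PBS. The authors deposited raw UMI counts per gene and barcode. The submitters' processing notes list Cell Ranger 7.0.0, Seurat and mm10 without their roles, and the labels name neither the annotation nor the 10x chemistry. From those counts, cells with at least 200 genes, 500 UMIs and under 10% mitochondrial UMIs were kept (197 UDSP-Hep and 245 PBS barcodes failed). Scrublet's own threshold in scanpy 1.11.5 marked 0.0129% and 0.0138% of barcodes, under 0.5%, so the top scores at 0.8% per 1000 barcodes were removed (481 and 417).

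Each cell was scored on markers of 17 cell types and gated at a score of 0.2 with a lead of 0.05, limits set after the data were seen. UMIs were summed per gate and library, with exact Poisson, conditional binomial and Clopper-Pearson intervals (scipy 1.17.1), which were tested on simulated data; intervals and floors (3 counts) cover counting error only. Clusters used 2000 variable genes, 30 components, 15 neighbours and resolution 1.5. The named genes were all 10 members, the 3 genes most correlated with each (log2 of CPM + 10, at least 100 UMIs), and at most 4 called genes with the most UMIs per pathway list and gate. The members and lists were chosen with earlier results of these data known. In the lists, Tasl was unmatched. The 11 planned and 3 added alternatives are given in the closing section.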

Additional observations from a re-analysis of the deposited data

How the results depend on the processing

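The count of 14 gene-by-gate combinations called higher was 7 when cells were thinned to 1000 UMIs, 6 at a fold threshold of 2 and 9 with T cell CPM taken off, and between 10 and 16 under the other settings. The count of 0 called lower was 1 by graph clusters (Tlr4 in macrophages, ratio 0.623), 1 when thinned (Tlr4 in classical monocytes, 0.662), 1 with no UMI minimum (Tlr9 in cDC2, 0 UMIs in UDSP-Hep and 8 in PBS), 2 with T cell CPM taken off (Tlr1 and Tlr4 in cDC2, 0.173 and 0.603) and 1 with every cluster weighed the same (Tlr8 in classical monocytes, 0.645). Thinning leaves fewer UMIs and 23 of 40 measured ratios; otherwise the cause was not tested. No called ratio changed sign. At the 1.5-fold limit, 8 of the 14 stayed called higher under every other alternative that gave them a value, of 13: Tlr2 in classical monocytes (lowest and highest ratio 1.58 and 2.16), macrophages (2.54 and 4.74), cDC2 (2.14 and 2.83) and mature dendritic cells (5.26 and 8.50), Tlr13 in macrophages and mature dendritic cells, Cd14 in macrophages and Tlr1 in mature dendritic cells (8 alternatives gave a value). Of these, Tlr13 in both gates and Cd14 in macrophages were below a fold of 2. Tlr1 and Tlr2 in mature dendritic cells reached the UMI minimum only through UDSP-Hep. With T cell CPM taken off they had no ratio, since their PBS level was not above that of T cells. Nothing is read from those 2 calls. Tlr6 in classical monocytes kept its call in 4 of 13 and in macrophages in 7 of 13. The alternatives without shared barcodes, with clusters weighed the same and without cells scoring on other markers were chosen after seeing the data. No paired analysis was possible because each group was 1 library. With 1 pool per group, the treatment and any difference between libraries in handling or depth cannot be told apart, and gates with under 50 cells in a library limit what the neutrophil, cDC1, pDC and B cell levels can show.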
